A study of Mus musculus with 6 samples.

Results

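Antioxidant enzymes remove the superoxide, hydrogen peroxide and lipid peroxides that arise from respiration and oxidases. The 10 genes described here were chosen by name, as *Sod1*, *Sod2*, *Sod3*, *Cat*, *Gpx1*, *Gpx3*, *Gpx4*, *Gsr*, *Nqo1* and *Hmox1*. All 10 were among the 14865 genes listed in the deposited table and among the 14455 genes tested. Their RNA was measured in the cochlear duct of C57BL/6 mice at postnatal day 8 by polyA RNA-seq, in 3 *Gfi1*+/+ libraries and 3 *Gfi1*cre/+ libraries. Each *Gfi1*+/+ library held 2 cochleae of 1 mouse, whereas each *Gfi1*cre/+ library pooled 6 cochleae of 3 mice, and no other allele or agent is given for either genotype. In *Gfi1*cre/+ mice the Cre recombinase coding sequence takes the place of part of 1 copy of *Gfi1*, a transcription factor gene of hair cells (HCs) and blood cells, so that Cre is driven by the *Gfi1* locus. The comparison asks whether the cochlear transcriptome already differs between the genotypes at this age.

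As background, superoxide dismutases turn superoxide into hydrogen peroxide, and catalase and the glutathione peroxidases turn peroxides into water or alcohols. Glutathione reductase returns oxidized glutathione to its reduced form with NADPH. *Nqo1* and *Hmox1*, like several glutathione genes, are classical targets of NRF2, the transcription factor that responds to oxidative stress. In the cochlea, HCs and the ion-pumping stria vascularis have a high respiratory demand, and mice without *Sod1* or *Gpx1* are known to be more easily damaged by noise.

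Among the members, *Gpx1*, *Gpx3* and *Gpx4* encode selenoproteins, in which a TGA codon inside the reading frame is read as selenocysteine at the catalytic site. The stretches of 15 codons around that codon are shown because this codon makes the enzymes depend on selenium, whose supply genes are described further on. The codon is in capitals, and the sequences are read from the principal transcripts of the GENCODE annotation of GRCm38 (the mm10 build), 5′ to 3′.
*Gpx1*: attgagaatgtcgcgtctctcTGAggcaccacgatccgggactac
*Gpx3*: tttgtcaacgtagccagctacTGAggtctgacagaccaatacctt
*Gpx4*: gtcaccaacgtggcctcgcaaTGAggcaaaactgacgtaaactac
The codon was number 47 of the *Gpx1* reading frame (exon 1, chromosome 9, 108339451 to 108339453). It was number 73 in both *Gpx3* (exon 2, chromosome 11, 54907256 to 54907258) and *Gpx4* (exon 3, chromosome 10, 80054737 to 80054739). Over the 45 bases shown, *Gpx1* and *Gpx4* had 25 identical bases, *Gpx3* and *Gpx4* had 24, and *Gpx1* and *Gpx3* had 21. The other 7 members had no TGA inside their reading frames.

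Reads counted on genes ran from 13603908 to 19359753 per library. Values are normalized reads, which are read counts divided by 1 size factor per library, and a count of 0 allowed up to 3 reads, or 2.61 to 3.70 normalized reads, by counting error alone. Each member had at least 268 reads in every library. *Gfi1* itself had 147, 160 and 152 normalized reads in *Gfi1*+/+ and 136, 130 and 139 in *Gfi1*cre/+, without overlap. Such separate ranges were found in 7.52% of all genes tested. The log2 fold change of *Gfi1*, *Gfi1*cre/+ against *Gfi1*+/+, was -0.18 (interval -0.40 to 0.04). limma's test gave it an unadjusted p-value of 0.0945 and an adjusted p-value of 0.999, so a decrease was not shown. The *Gfi1* count includes exons that the targeted allele keeps. Markers of HCs (9 of 10 listed), supporting cells (9 of 10), stria vascularis (10 of 10) and fibrocytes (10 of 10) were present, as were those of other cell types. The libraries did not hold equal shares of these. Summed neuronal markers (10 of 10 listed, none at or under 3 reads throughout) came to 10004 normalized reads in *Gfi1*+/+ replicate 1 and to between 1822 and 3665 in the other libraries. The summed level of 4 Y-linked genes was 0 to 2.1 normalized reads in *Gfi1*+/+ and 794 to 1621 in *Gfi1*cre/+, so sex and genotype cannot be told apart in any comparison here.

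RNA of all 10 antioxidant enzymes was above the counting floor in every library, and a genotype difference was shown for none of them. Their log2 fold changes lay between -0.19 for *Hmox1* and 0.08 for *Gsr*. The 10 genes together took between 0.0808% and 0.0869% of the normalized reads of a library. limma's test gave none of the 10 members an adjusted p-value under 0.05, where 0.0277% of all genes tested did. None had an unadjusted p-value under 0.05 either, where 3.04% of all genes tested did, and the count was also 0 of 10 with edgeR and with DESeq2 on the recovered reads. In none of the 10 genes did the genotypes occupy separate ranges, compared with 7.52% of all genes tested. The log2 fold change, as *Gfi1*cre/+ minus *Gfi1*+/+, had a median of -0.013 over the members, with 3 genes above 0 and 7 below, and the median over all genes tested was -0.00012. For each member the adjusted p-value from limma's test was 0.999.

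The precision of these differences can be read from their intervals. The 95% interval of the fold change lay within 1.5-fold in either direction for all 10 members, as it did for 87.6% of all genes tested. It lay within 1.25-fold for 8 of the 10, the exceptions being *Sod1* and *Hmox1*, and for 63.9% of all genes tested. On the log2 scale the lower limit of *Hmox1*, -0.57, was near the 1.5-fold bound. Under some alternatives that limit was beyond 1.5-fold. It was -0.59 in limma with robust variances, -0.65 without a trend and -0.67 without *Gfi1*cre/+ replicate 1. Without a trend the interval of *Sod3*, from -0.38 to 0.37, was also wider than 1.25-fold. The median half-width of the interval was 0.16 on the log2 scale for the members and 0.19 for all genes tested. These p-values and intervals rest on 3 libraries per genotype, and the spread of *Gfi1*cre/+ libraries is that of averages over animals.

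**Figure D1:**
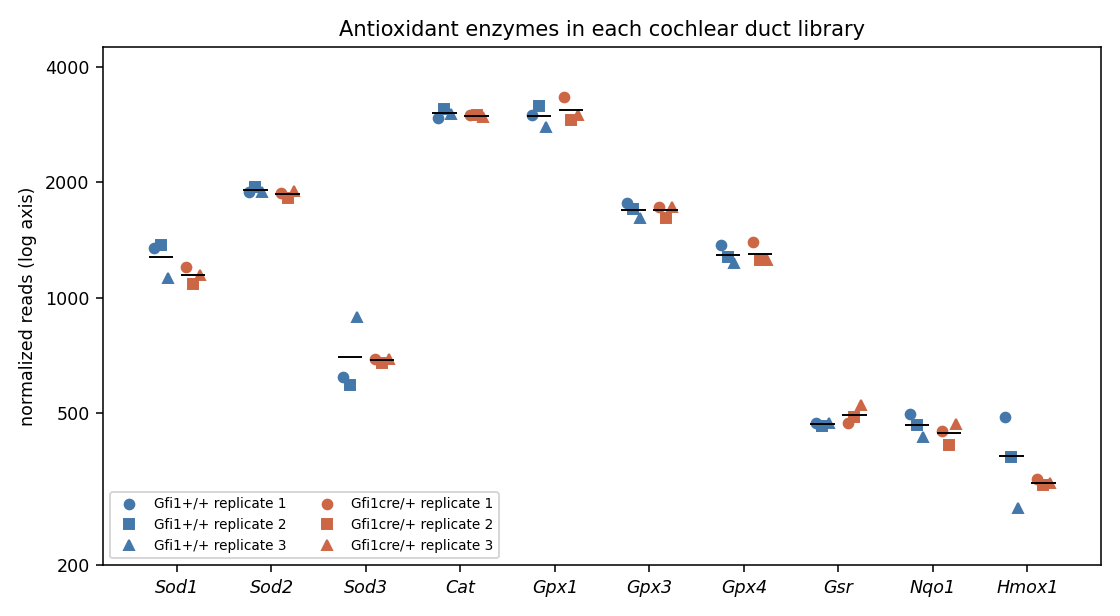
Normalized reads (log axis) of the 10 antioxidant enzymes, with 1 point per library, *Gfi1*+/+ in blue and *Gfi1*cre/+ in orange, and a black bar for the mean of 3 libraries. The genotypes overlap in every gene, and the *Gfi1*+/+ libraries of *Sod3* (592 to 889) and *Hmox1* (283 to 489) lie farther apart than the *Gfi1*cre/+ libraries (676 to 691 and 323 to 335).

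**Figure D2:**
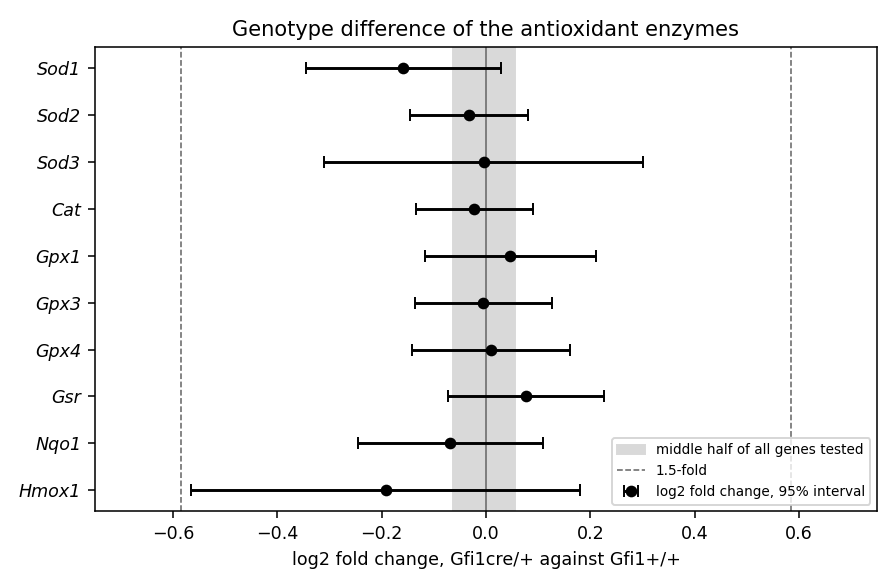
Log2 fold change of each antioxidant enzyme, *Gfi1*cre/+ against *Gfi1*+/+, with its 95% interval from limma. The grey band runs from -0.063 to 0.055, the middle of all genes tested, and no interval reaches the dashed lines at a fold change of 1.5.

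Levels can be set beside each other only per length of transcript. Per kilobase of principal transcript, averaged over the 6 libraries, *Gpx1* was highest with 2827 normalized reads, above 97.5% of the listed genes that have a length. *Sod1* followed with 1890, *Gpx4* with 1353, *Cat* with 1149 and *Gpx3* with 1061 normalized reads per kilobase, and the ranges of these 5 genes over the libraries did not overlap with their neighbours in this order. Below them came *Sod2* (322), *Nqo1* (292), *Hmox1* (227), *Sod3* (185) and *Gsr* (180), each of which overlapped with its neighbour among these 5. The lowest, *Gsr*, was still above 54.3% of listed genes. The order depends on the transcript assumed. With all annotated exons of a gene as its length, *Gpx1* remained first. *Sod1* moved from place 2 to place 5, at 305 normalized reads per kilobase over 3970 bases in place of 641. *Cat* (1149) and *Gpx3* (933) then came above *Gpx4* (753), and *Sod2* (189) came below *Nqo1* (292) and *Hmox1* (204).

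The superoxide dismutases differ in where they act. *Sod1*, the cytosolic copper and zinc enzyme (ENSMUSG00000022982, chromosome 16, 90220754 to 90226329), had 1345, 1368 and 1125 normalized reads in *Gfi1*+/+, in the order of the replicate numbers as throughout, and 1203, 1082 and 1145 in *Gfi1*cre/+. Replicates 1 and 2 of *Gfi1*+/+ were above all *Gfi1*cre/+ libraries, whereas replicate 3 lay among them. The means were 1280 ± 134 and 1143 ± 60.4 (SD, n = 3), and the log2 fold change of -0.16 had an interval from -0.35 to 0.03. *Sod1* had the lowest p-value of the 10 in limma's test, 0.089 unadjusted and 0.999 adjusted.

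*Sod2*, the manganese enzyme of mitochondria (ENSMUSG00000006818, chromosome 17, 13006846 to 13040063), had 1890, 1944 and 1890 normalized reads in *Gfi1*+/+ and 1880, 1815 and 1903 in *Gfi1*cre/+. All 6 libraries lay close together, and the log2 fold change was -0.03 with an interval from -0.15 to 0.08. *Sod3*, the secreted enzyme that binds extracellular matrix (ENSMUSG00000072941, chromosome 5, 52363791 to 52371418), had 620, 592 and 889 normalized reads in *Gfi1*+/+ and 691, 676 and 691 in *Gfi1*cre/+. *Gfi1*+/+ replicate 3 lay above the 3 *Gfi1*cre/+ libraries, and replicates 1 and 2 lay below them. Its log2 fold change was 0.00 to 2 decimals, with an interval from -0.31 to 0.30. *Sod3* was the 1 member on the chromosome of *Gfi1*, at a distance of 55.4 megabases.

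Catalase, the peroxisomal enzyme encoded by *Cat* (ENSMUSG00000027187, chromosome 2, 103453849 to 103485160), had 2950, 3108 and 3022 normalized reads in *Gfi1*+/+ and 2991, 2996 and 2953 in *Gfi1*cre/+. The highest library exceeded the lowest by a factor of 1.05 within *Gfi1*+/+ and of 1.01 within *Gfi1*cre/+. Its log2 fold change of -0.02 had the narrowest interval of the 10 members, from -0.13 to 0.09, which as a fold change is 0.911 to 1.06.

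The glutathione peroxidases measured were the cytosolic and mitochondrial *Gpx1* (ENSMUSG00000063856, chromosome 9, 108338903 to 108340343), the secreted *Gpx3* (ENSMUSG00000018339, chromosome 11, 54902453 to 54910377) and the phospholipid peroxidase *Gpx4* (ENSMUSG00000075706, chromosome 10, 80047166 to 80056439), which guards cells against ferroptosis. *Gpx1* had 2990, 3163 and 2788 normalized reads in *Gfi1*+/+ and 3349, 2903 and 2990 in *Gfi1*cre/+, and its log2 fold change was 0.05 (interval -0.12 to 0.21). Its highest library was *Gfi1*cre/+ replicate 1 and its lowest *Gfi1*+/+ replicate 3. *Gpx3* had 1768, 1707 and 1611 normalized reads in *Gfi1*+/+ and 1728, 1615 and 1725 in *Gfi1*cre/+. The ranges of the genotypes nearly coincided, and its log2 fold change was 0.00 to 2 decimals (interval -0.14 to 0.13). *Gpx4* had 1368, 1277 and 1233 normalized reads in *Gfi1*+/+ and 1400, 1257 and 1250 in *Gfi1*cre/+, with a log2 fold change of 0.01 (interval -0.14 to 0.16). In both genotypes replicate 1 was the highest library for *Gpx4*. A processed copy, *Gpx4-ps2*, is annotated and is not in the deposited table, and reads that match both cannot be assigned to 1 of them.

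Glutathione reductase, *Gsr* (ENSMUSG00000031584, chromosome 8, 33652523 to 33698163), had 469, 462 and 470 normalized reads in *Gfi1*+/+ and 470, 486 and 524 in *Gfi1*cre/+. The *Gfi1*+/+ libraries were nearly identical, and the lowest *Gfi1*cre/+ library lay just within their range. The log2 fold change of 0.08 (interval -0.07 to 0.23) was the highest among the 10 members. The quinone reductase *Nqo1* (ENSMUSG00000003849, chromosome 8, 107388225 to 107403206) had 496, 464 and 434 normalized reads in *Gfi1*+/+ and 449, 413 and 467 in *Gfi1*cre/+. Its libraries were mixed between the genotypes, and the log2 fold change was -0.07 (interval -0.25 to 0.11).

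Heme oxygenase 1, which degrades heme and is encoded by *Hmox1* (ENSMUSG00000005413, chromosome 8, 75093621 to 75100589), varied most between libraries. It had 489, 383 and 283 normalized reads in *Gfi1*+/+ and 335, 323 and 327 in *Gfi1*cre/+, which are 385 ± 103 and 329 ± 6.06 (SD, n = 3). The *Gfi1*cre/+ libraries were nearly equal and lay inside the *Gfi1*+/+ range. The log2 fold change was -0.19, the lowest of the 10, with the widest interval, from -0.57 to 0.18.

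The spread between the *Gfi1*+/+ libraries, each of 1 mouse, was thus uneven across the family. The SD of log2(normalized reads + 1) in *Gfi1*+/+ was 0.39 for *Hmox1* and 0.32 for *Sod3*. These were above those of 98.8% and 97.9% of the 7599 tested genes whose mean level lay within the members' range, where the median was 0.095. At the other end *Gsr* had an SD of 0.014, *Sod2* of 0.024 and *Cat* of 0.038. In *Gfi1*cre/+, where a library averages over 3 mice, *Hmox1* had an SD of 0.026 and *Sod3* of 0.018, compared with a median of 0.057 over the same genes. Counting error also enters each SD, with 380 to 555 reads per library for *Gsr* and 268 to 396 for *Hmox1*. With 3 libraries per genotype, a low SD therefore does not show that the animals were alike.

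*Gfi1*+/+ replicate 3 had the least *Hmox1* and the most *Sod3* of the 6 libraries, and cell type markers differed between the same libraries. The library with most *Hmox1*, *Gfi1*+/+ replicate 1, was also the one with most neuronal markers, as given above. Schwann cell markers (10 of 10 listed, none at or under 3 reads throughout) came there to 41264 normalized reads and to between 17979 and 27811 in the others. Bone and cartilage markers (10 of 10 listed, none at or under 3 reads throughout) came to 408380, 470939 and 533442 normalized reads over the *Gfi1*+/+ replicates and to between 484931 and 511594 in *Gfi1*cre/+. *Sod3* was highest in *Gfi1*+/+ replicate 3, where these were highest. HC markers (10777.1 normalized reads) and supporting cell markers (62524.5) were also highest in that library. Between *Gfi1*+/+ replicates 1 and 2 the order was reversed, with more *Sod3* and less of the bone and cartilage markers in replicate 1. In these bulk libraries fewer cells of a type and less RNA per cell cannot be told apart, and the part of these markers in *Hmox1* and *Sod3* was not tested.

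Blood cells were considered because macrophages that take up red cells express *Hmox1* and red cells are rich in catalase and *Gpx1*. Macrophage markers (11 of 12 listed, none at or under 3 reads throughout) summed to between 7724 and 8434 normalized reads in *Gfi1*+/+ and between 7515 and 8106 in *Gfi1*cre/+, with *Csf1r* at 2342 to 2698 and 2313 to 2538 normalized reads. Erythroid markers (11 of 15 listed, none at or under 3 reads throughout) summed to 29509, 40244 and 43877 normalized reads in the *Gfi1*+/+ replicates and to 60268, 66442 and 38397 in the *Gfi1*cre/+ replicates. *Hba-a2* alone accounted for 14033, 18577 and 19172 in *Gfi1*+/+ and 27027, 30372 and 17596 in *Gfi1*cre/+. Neutrophil lineage markers, of which 6 of 10 were listed and none was at or under 3 reads throughout, summed to between 61.7 and 271 normalized reads in *Gfi1*+/+ and between 236 and 460 in *Gfi1*cre/+. Beside these sums, *Gpx1* stood at 3349 and 2903 normalized reads and *Cat* at 2991 and 2996 in *Gfi1*cre/+ replicates 1 and 2, where the erythroid sum was highest, and both genes overlapped between the genotypes. The part of blood cells in the members' values was not tested.

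The direction of several members rested on single libraries. Without *Gfi1*+/+ replicate 3 the log2 fold change was -0.25 for *Sod1*, -0.40 for *Hmox1* and 0.18 for *Sod3*, and these 3 of 10 members then had an unadjusted p-value under 0.05, compared with 16.2% of all genes tested in the same fit. Their adjusted p-values from limma's test were 0.113, 0.126 and 0.187. Without *Gfi1*+/+ replicate 1, on the other hand, the log2 fold change of *Hmox1* was 0.00 to 2 decimals, with an unadjusted p-value of 0.982 in limma's test. *Sod2*, *Cat*, *Gsr*, *Nqo1*, *Sod1* and *Hmox1* kept their sign in each of the 6 fits that left out 1 library, whereas *Gpx1*, *Gpx3*, *Gpx4* and *Sod3* did not. With weights for each library, 2 of 10 members, *Sod1* and *Hmox1*, had an unadjusted p-value under 0.05, compared with 11.5% of all genes tested.

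**Figure D3:**
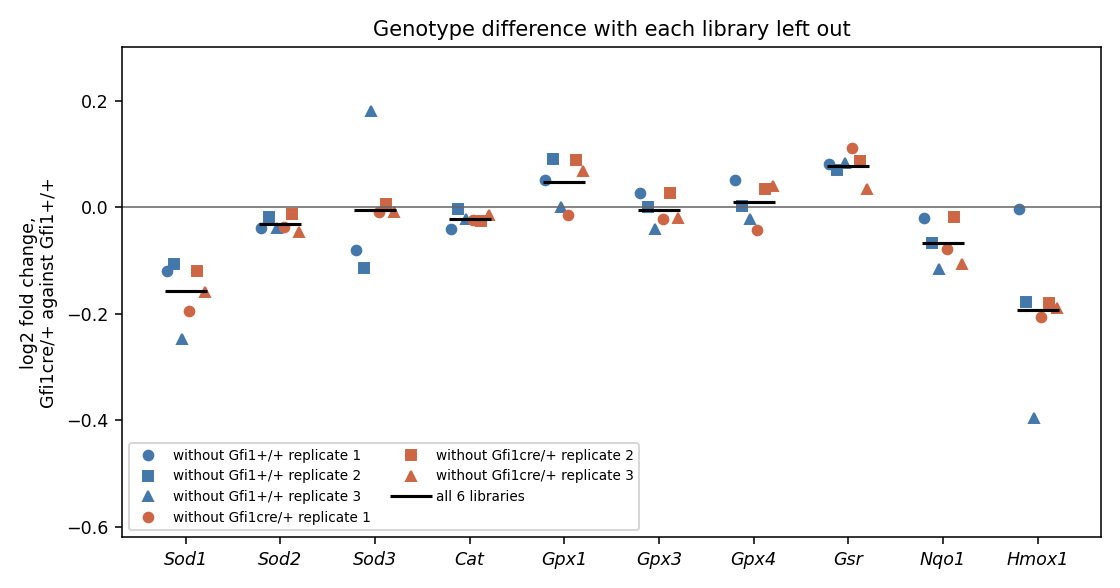
Log2 fold change, *Gfi1*cre/+ against *Gfi1*+/+, of each antioxidant enzyme with all 6 libraries (black bar) and with each library left out (points, blue where a *Gfi1*+/+ library is left out and orange where a *Gfi1*cre/+ library is). The widest ranges are those of *Hmox1*, from -0.40 to 0.00, and *Sod3*, from -0.11 to 0.18.

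*Sod1* has the shortest transcript of the family, and short transcripts as a class differed between the libraries. Among the 1172 tested genes with a principal transcript under 1000 bases, a class chosen after the values had been seen, the median deviation of log2 levels from each gene's mean was 0.096, 0.093 and -0.090 in *Gfi1*+/+ replicates 1, 2 and 3. It was 0.024, -0.096 and -0.023 in the *Gfi1*cre/+ replicates. The libraries above their mean for this class were those with most *Sod1*, and *Gfi1*cre/+ replicate 2, the library with least *Sod1*, was the lowest. The median log2 fold change of the class was -0.07, and without *Gfi1*+/+ replicate 3 it was -0.13. For the 7211 genes with a transcript of 3000 bases or more it was 0.01 and 0.02. *Gpx4*, the other member in this class, was also highest in the libraries above their mean for the class, but in another order. Its highest library was *Gfi1*cre/+ replicate 1, with 1400 normalized reads, and its lowest was *Gfi1*+/+ replicate 3, with 1233. The log2 fold change of *Gpx4* was 0.01. The part of transcript length in the values of *Sod1* was not tested.

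The other genes of antioxidant defence were read from 8 lists written from general knowledge, with 109 genes, of which 99 were listed and 97 tested. By limma's test none of the 97 passed an adjusted p-value of 0.05. *Glrx3*, a glutaredoxin that handles iron-sulfur clusters, was the 1 gene of the 97 with an unadjusted p-value under 0.05, against 3.04% of all genes tested, and none was higher at that level. Its p-value was above 0.05 under 6 alternatives, among them the replicate block, DESeq2 and 4 of the 6 fits that left out a library. edgeR likewise gave 1 gene, which was lower, and DESeq2 gave none. limma without a trend gave 3 genes of the 97, all lower, where 516 of all 14455 genes tested passed. In 5 of the 97 genes the ranges of the genotypes were separate, against 7.52% of all genes tested. These 5, named after their values were seen, were *Ggct*, *Gstt2*, *Gstz1*, *Sepsecs* and *Nox4*, and each was lower in *Gfi1*cre/+, with log2 fold changes between -0.27 and -0.07. Without *Gfi1*+/+ replicate 3, 17 of the 97 were lower and 4 higher at an unadjusted p-value under 0.05, against 16.2% of all genes tested in that fit, and *Mgst3*, a microsomal glutathione transferase, had an adjusted p-value of 0.047 in limma's test. With weights for each library 8 were lower and 3 higher at that level, against 11.5% of all genes tested. *Gfi1*+/+ replicate 3 was the lowest of the 6 in 33 of the 97 genes, or 34.0%, and in 4 of the 10 members, compared with 22.2% of all genes tested.

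Peroxiredoxins, thioredoxins and glutaredoxins reduce peroxides and disulfides beside the glutathione system, and 17 of the 18 genes listed for them were tested. Their median log2 fold change was -0.02, with 8 above 0 and 9 below. *Prdx5* and *Prdx2* had the most reads per kilobase, 3454 and 2545 normalized reads, and both had more than *Sod1* on that scale. *Prdx5* had 4935, 4438 and 3932 normalized reads in *Gfi1*+/+ and 4494, 3992 and 4364 in *Gfi1*cre/+. *Prdx2*, which is also abundant in red cells, had 4325, 4390 and 3712 in *Gfi1*+/+ and 4258, 3862 and 4072 in *Gfi1*cre/+, so that for both genes the lowest library was *Gfi1*+/+ replicate 3. *Glrx3* had 177, 192 and 156 normalized reads in *Gfi1*+/+ and 142, 129 and 159 in *Gfi1*cre/+, with an overlap in 1 library. Its log2 fold change was -0.29 (standard error 0.120, unadjusted p = 0.040 and adjusted p = 0.999 from limma's test).

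Among the other glutathione peroxidases, *Gpx7* and *Gpx8* of the endoplasmic reticulum had 734 to 956 and 1028 to 1349 normalized reads over the 6 libraries. Their log2 fold changes were -0.05 and -0.03. *Gpx2*, the gut enzyme and also a selenoprotein (codon 40), had between 62 and 131 normalized reads and the highest log2 fold change of this list, 0.20 (interval -0.34 to 0.74), and *Gpx5* and *Gpx6* were not listed. Glutathione supply and transfer genes had the lowest median of the 8 lists, -0.07, with 5 of the 22 tested genes above 0 and 17 below, none with an unadjusted p-value under 0.05. *Gsta4*, the glutathione transferase that clears the lipid peroxidation product 4-hydroxynonenal, led the list with 4825 normalized reads per kilobase and was above every one of the 10 members on that scale. *Gstm5* followed with 1148. The log2 fold changes were -0.07 for *Gsta4* and -0.08 for *Gstm5*.

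The NRF2 pathway regulators, of which 10 of 10 were tested, had a median log2 fold change of 0.03. The related factor *Nfe2l1* and the autophagy receptor *Sqstm1*, which binds the NRF2 inhibitor KEAP1, had the most reads per kilobase. *Nfe2l1* had 6347, 6641 and 7162 normalized reads in *Gfi1*+/+ and 7023, 7141 and 7362 in *Gfi1*cre/+, with a log2 fold change of 0.10. *Nfe2l2*, which encodes NRF2, had 1213, 1086 and 1144 in *Gfi1*+/+ and 1205, 1151 and 1225 in *Gfi1*cre/+, and its inhibitor *Keap1* had 1122, 1179 and 1254 and 1235, 1179 and 1340. Their log2 fold changes were 0.06 (interval -0.08 to 0.20) and 0.08 (interval -0.08 to 0.23), and both genes overlapped between the genotypes.

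Genes that supply NADPH to *Gsr* and reduce quinones, 10 of 10 tested, had a median log2 fold change of 0.02 and a range from -0.10 for *Me1* to 0.09 for *Akr1b3*. *Taldo1* and *Idh2* had the most reads per kilobase, 2553 and 1712. Heme and iron genes, 10 of 10 tested, had a median of -0.02. The ferritin chains *Fth1* and *Ftl1*, which store the iron that heme oxygenase releases, had 13604 to 14459 and 4655 to 6200 normalized reads over the 6 libraries. *Hmox2*, the constitutive heme oxygenase, had 916 to 999 normalized reads in *Gfi1*+/+ and 859 to 951 in *Gfi1*cre/+. Per kilobase it had 497 to 577 normalized reads, above the 180 to 312 of *Hmox1*.

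Metal and selenium supply genes, 12 of 12 tested, had a median log2 fold change of 0.00 to 2 decimals, with 6 above 0 and 6 below. *Sepp1*, the secreted selenoprotein that carries selenium to tissues, had 15654, 15420 and 14020 normalized reads in *Gfi1*+/+ and 15883, 14463 and 15054 in *Gfi1*cre/+, a log2 fold change of 0.01 with an interval from -0.15 to 0.17. *Atox1*, a copper chaperone, had the next most reads per kilobase, 4136. *Ccs*, which loads copper into SOD1, had a log2 fold change of 0.02 with an interval from -0.11 to 0.15. Of the genes that make or insert selenocysteine, the codon shown above for *Gpx1*, *Gpx3* and *Gpx4*, *Pstk* had the lowest log2 fold change, -0.18 (interval -0.37 to 0.01).

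Among sources of superoxide and peroxide, 14 of 17 genes were listed and 13 tested, with a median log2 fold change of 0.00 to 2 decimals. *Cyba*, the membrane subunit shared by NADPH oxidases, had the most reads per kilobase, 1117 normalized reads, and a log2 fold change of 0.06. *Nox3*, the oxidase of the inner ear, was not listed. *Nox4* had 72 to 78 normalized reads in *Gfi1*+/+ and 56 to 64 in *Gfi1*cre/+, with a log2 fold change of -0.27 (interval -0.61 to 0.06). Over all 8 lists, the 6 X-linked genes tested had log2 fold changes between -0.06 for *Cybb* and 0.09 for *Atp7a*.

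**Figure D4:**
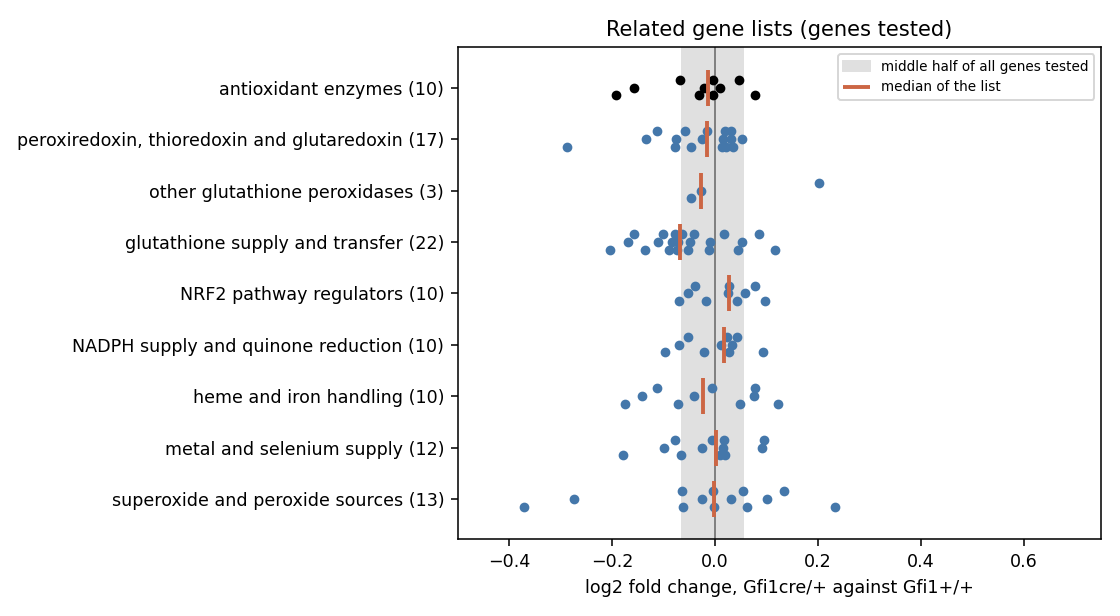
Log2 fold change, *Gfi1*cre/+ against *Gfi1*+/+, of the 10 antioxidant enzymes (black) and of the tested genes of the 8 related lists (blue, number tested in brackets), with the median of each list in orange and the middle of all genes tested (-0.063 to 0.055) in grey. The list medians lie between -0.07 and 0.03.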

How the data were processed

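TopHat alignments to mm10 and HTSeq counts of uniquely mapped reads were made by the authors from TruSeq libraries, with a minimum of 40 reads for a gene. Annotation, strand setting and versions are not given in the sources used here. The deposited signal is described as quantile-normalized, but its 6 columns did not share quantiles. In each column 100% of values were whole multiples of 1 step within 0.006 normalized reads, so each value is a count over its library's size factor.

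Genes that reached 40 normalized reads in any library were tested with limma (version 3.58.1, R 4.3.3) on log2(value + 1), which understates changes of low genes, with genotype as the only term, eBayes with a trend, two-sided, and Benjamini-Hochberg adjustment over all genes tested. edgeR (version 4.0.16) and DESeq2 (version 1.42.0) on recovered reads were added after the values had been seen. Other alternatives were the pseudocount, the filter, the variance model, the normalization, a replicate block, the ratio of means and each library left out. The steps were tested on simulated counts. Members and lists were chosen with earlier results of these data known. Genes named are all members, of each list those with an unadjusted p-value under 0.05 (at most 5) and the 2 with most reads per kilobase, *Gfi1*, the 2 most abundant erythroid, macrophage and neutrophil markers where used, and others whose role in the pathway is given, chosen after their values were seen. One gene that this rule names is not reported here. Lengths and positions came from GENCODE (14791 of 14865 identifiers matched), with the principal transcript as the length.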

Additional observations from a re-analysis of the deposited data

How the results depend on the processing

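The number of genes with an adjusted p-value under 0.05, 4 of those tested, was 0 where the genes tested were limited to those whose mean reached 200 normalized reads (229 genes at an unadjusted p-value under 0.05 in limma) and 10 with DESeq2, and lay between 0 and 48 with single libraries left out (0 without *Gfi1*cre/+ replicate 3, 8 without *Gfi1*+/+ replicate 2 and 48 without *Gfi1*+/+ replicate 3). The number of members with an unadjusted p-value under 0.05 was 2 with array weights and between 0 and 3 with single libraries left out. The median log2 fold change of the members moved by less than the spread between libraries (SD 0.0471) in all 19 alternatives. Some members changed sign, and for *Sod3* the change was not confined to values near 0. With array weights the log2 fold change was -0.0091 for *Gpx1*, -6.95e-05 for *Gpx4* and 0.13 for *Sod3*. With centring on the median it was 0.0041 for *Gpx3* and 0.0042 for *Sod3*. With single libraries left out it ran from -0.015 to 0.091 for *Gpx1*, from -0.041 to 0.027 for *Gpx3*, from -0.043 to 0.052 for *Gpx4* and from -0.11 to 0.18 for *Sod3*. *Glrx3* had an unadjusted p-value above 0.05 under 6 alternatives. The cause of these changes was not tested. Same-numbered libraries of the genotypes had deviations that correlated at -0.094, 0.107 and -0.033, so the numbers were not taken as pairs. With the replicate block 0 members passed an unadjusted p of 0.05, their median log2 fold change was -0.013, and 4 genes had an adjusted p-value under 0.05. With 3 libraries per genotype and at least 268 reads per member and library, the shares of counting error and of differences between libraries in the intervals were not separated.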
